A study of Homo sapiens with 4 samples.

Results

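The S100 proteins are small calcium-binding proteins of vertebrates. The genes described here are 10 members of the family, S100A4, S100P, S100A2, S100A3, S100A6, S100A10, S100A11, S100A13, S100A14 and S100A16, out of 57746 genes listed. They were found by symbol and all 10 were in the table. The members were chosen by their levels in the 4 lines described here, so those levels are given as a description and carry no test. RNA was sequenced from 3 derivatives of the human colorectal cancer cell line DLD1 and from DLD1 itself. SA was grown out of soft agar colonies and SPH out of colonospheres, and both are labelled mesenchymal. METS was established from a metastasis that a xenograft formed in the lung, and carries the label epithelial, as does the parental DLD1. All lines were cultured in the same serum-containing medium, each has 1 library, and whether a derived line is a single clone is not stated.

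Each S100 protein carries a pair of EF-hands, helix-loop-helix motifs that in most members hold calcium, and most work as dimers. In most members calcium opens a binding surface through which the dimer attaches to a partner, such as nonmuscle myosin for S100A4, ezrin for S100P and annexin A1 for S100A11, whereas S100A10 binds annexin A2 without calcium. Some members are also secreted and act on receptors such as RAGE, the product of AGER. S100A4 is known for its link to motility and metastasis, in colorectal cancer among others, and S100P as a gene raised in many carcinomas of the gut.

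The colorectal cell type in the labels was checked against marker genes of cell types. The mesenchymal and epithelial labels were taken as given, and no marker list was drawn up for them. Of 10 markers of colorectal epithelium 9 reached 1 RPKM (reads scaled to gene length and library size), and their summed level was 1641 RPKM in SA, 1776 in SPH, 2797 in METS and 2222 in DLD1. Most of each sum was KRT8, KRT18 and KRT19, and other markers went other ways. KRT20 had 4.06 RPKM in SA, 3.18 in SPH and 0.50 in METS, against 21.9 in DLD1. CDX2 and CDH17 were also lowest in METS, at 27.6 and 14.2 RPKM, and EPCAM was lowest in DLD1, at 212 RPKM. CDH1 stood at 94.5 RPKM in SA and 97.3 in SPH, against 103 in METS and 115 in DLD1. VIL1 was highest in METS, at 3.35 RPKM, and lowest in DLD1, at 1.39, and CDX1 did not exceed 0.09. Myeloid cells, which carry S100A8, S100A9 and S100A12 in the body, would show PTPRC and FCGR3A, both listed at 0 in all lines. The 7 myeloid markers together stayed between 0.83 and 1.90 RPKM, most of it CD14. CD14 stood at 0.71 RPKM in SA, 0.81 in SPH and 1.36 in METS, against 0.89 in DLD1. The summed levels of the 6 lymphocyte and 6 fibroblast markers did not exceed 0.38 and 0.49 RPKM, and that of the 3 measured endothelial markers did not exceed 0.26. The 5 markers of lung epithelium summed to 0.28 RPKM in SA, 0.19 in SPH and 1.01 in METS, against 0.59 in DLD1, and NKX2-1 made 1 RPKM of the METS value. The 7 squamous keratinocyte markers summed to 19.0 RPKM in SA, 19.7 in SPH, 10.3 in METS and 11.3 in DLD1, nearly all of it KRT10 and KRT5, with TP63 and loricrin listed at 0. KRT5 stood at 4.96 RPKM in SA and 5.15 in SPH, against 0.07 in METS and 0.13 in DLD1.

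On the scale of log2(RPKM + 1) the 3 members with the widest range between lines were S100A4, S100P and S100A14, and the stretch before the start of each is shown because these genes carry the differences described below. As a plain ratio of highest to lowest line, the low members S100A2 (2.64) and S100A3 (5) exceeded S100A14 (2.34). Each line gives the 250 bases before the annotated start, on the strand of the gene, from RefSeq (GRCh38.p14). The windows are chr1:153545807-153546056 (minus strand) for S100A4, chr4:6693628-6693877 (plus strand) for S100P and chr1:153616326-153616575 (minus strand) for S100A14. Capitals mark TATAAA, the letters of a TATA box, and CAGGTG, an E-box of the kind that SNAI and ZEB repressors bind, read on both strands (CACCTG on the other strand).
S100A4: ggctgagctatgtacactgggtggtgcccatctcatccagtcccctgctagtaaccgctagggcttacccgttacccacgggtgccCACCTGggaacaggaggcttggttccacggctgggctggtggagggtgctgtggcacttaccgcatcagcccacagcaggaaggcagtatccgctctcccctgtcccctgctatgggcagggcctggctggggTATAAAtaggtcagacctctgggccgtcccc
S100P: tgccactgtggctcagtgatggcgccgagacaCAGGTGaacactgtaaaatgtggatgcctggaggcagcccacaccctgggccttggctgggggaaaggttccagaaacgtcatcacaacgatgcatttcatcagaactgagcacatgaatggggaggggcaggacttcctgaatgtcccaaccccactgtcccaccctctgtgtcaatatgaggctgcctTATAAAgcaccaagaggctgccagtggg
S100A14: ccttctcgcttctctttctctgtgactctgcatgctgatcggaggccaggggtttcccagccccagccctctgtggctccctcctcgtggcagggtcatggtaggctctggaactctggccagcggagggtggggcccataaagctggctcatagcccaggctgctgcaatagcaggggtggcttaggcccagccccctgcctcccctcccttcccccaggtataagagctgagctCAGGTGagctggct
With the base before the start counted as -1, TATAAA began at -31 in S100A4 and at -28 in S100P. The S100A14 window held no exact TATAAA, though it reads tataag shortly before its CAGGTG, and 10.7% of 35116 promoter windows of this length held TATAAA on either strand. CAGGTG began at -164 in S100A4, -218 in S100P and -14 in S100A14, and 17.5% of all windows held it. The core of a TCF/LEF site, CTTTG or its reverse CAAAG, was in none of these 3 windows, against 42.1% of all windows. CG pairs numbered 7 in the S100A4 window, 4 in that of S100P and 4 in that of S100A14, with a median of 11 over all windows. As few or fewer were in 43.7% of all windows for the S100A4 number and in 34.3% for that of S100P and S100A14. Among the other members the number ran from 1 in a window of S100A16 to 24 in S100A6 and S100A10. The motifs were not particular to the genes shown. CAGGTG was also in a window of S100A2 and in one of S100A16, TATAAA in one of S100A13, and the TCF/LEF core in other windows of S100A13. A match of letters shows neither binding nor methylation, and neither was measured here.

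S100A4 showed the widest range among the members. It stood at 28.5 RPKM in SA, 52.4 in SPH and 305 in METS, against 8.56 in DLD1. All 3 derived lines were thus above the parental line, and the order METS, SPH, SA, DLD1 did not follow the epithelial and mesenchymal labels, since both ends of it are epithelial. On the scale of log2(RPKM + 1), used for every log2 fold here, the difference from DLD1 was 1.63 in SA, 2.48 in SPH and 5.00 in METS. As a plain ratio of RPKM, S100A4 was 3.33 times its DLD1 level in SA, 6.12 times in SPH and 35.6 times in METS. METS also stood 10.7 times above SA and 5.81 times above SPH, and SPH stood 1.84 times above SA. Among all genes ranked by RPKM, S100A4 was number 1428 in SA, 664 in SPH and 79 in METS, against 4819 in DLD1. Its level rests on about 2841 reads in SPH and 471 in DLD1, with counting errors of 1.88% and 4.61%, which leave out any spread between cultures. In RNA from a whole culture, more cells with the transcript and more transcript per cell cannot be told apart.

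S100P, whose protein binds ezrin, moved in opposite directions in the mesenchymal lines and in METS. It stood at 6.78 RPKM in SA, 9.00 in SPH and 129 in METS, against 33.1 in DLD1. SA and SPH lay below both epithelial lines, and METS lay above DLD1. The log2 fold against DLD1 was -2.13 in SA, -1.77 in SPH and 1.93 in METS. Between METS and SA the ratio of RPKM was 19.1, and between METS and SPH it was 14.4. S100P ranked 5728th in SA, 4665th in SPH and 216th in METS, against 1221st in DLD1. Its METS value, like that of S100A4, rests on 1 library, and no spread between cultures is known for either.

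**Figure D1:**
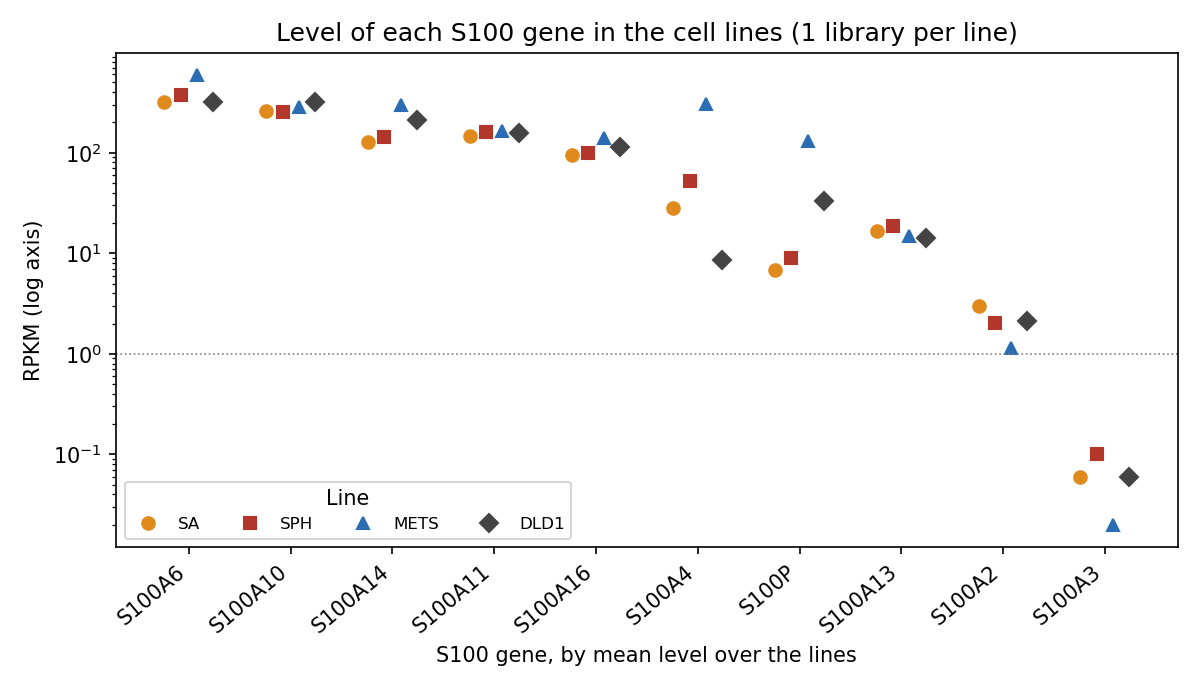
RPKM of the 10 S100 genes in SA, SPH, METS and DLD1 on a log axis, 1 point per library, with genes ordered by their mean over the lines and a dotted line at 1 RPKM. S100A4 spreads between 305 RPKM in METS and 8.56 in DLD1 and S100P between 129 in METS and 6.78 in SA, whereas the points of S100A10, S100A11 and S100A13 lie close together.

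S100A14 and its chromosomal neighbour S100A16 followed the same order of lines as S100P over a narrower range. S100A14, an epithelial member, stood at 127 RPKM in SA, 144 in SPH and 297 in METS, against 210 in DLD1. The log2 folds against DLD1 were -0.72, -0.54 and 0.50 in SA, SPH and METS. METS stood at least 2-fold above both mesenchymal lines, with log2 folds of 1.22 against SA and 1.04 against SPH. S100A16, a broadly expressed member, stood at 94.2 RPKM in SA, 98.3 in SPH and 140 in METS, against 115 in DLD1. Its log2 folds against DLD1 were -0.28, -0.22 and 0.28, all short of 2-fold. In S100P, S100A14 and S100A16 the order was METS, DLD1, SPH, SA. The sum of the colorectal epithelial markers, most of it KRT8, KRT18 and KRT19, stood in that order too, while EPCAM, CDH1, KRT20, CDX2, CDH17 and VIL1 did not. KRT5 separated the classes in the other direction. The part of these genes in the differences was not tested. Lower than DLD1 in both SA and SPH and higher in METS describes 3 of the 9 members that reached 1 RPKM and 7.78% of 11664 such genes.

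S100A6, known as calcyclin, had the highest mean level of the family over the lines. It stood at 318 RPKM in SA, 371 in SPH and 587 in METS, against 318 in DLD1. SA and DLD1 were level and METS stood above the other lines, with a log2 fold of 0.88 against both DLD1 and SA and 0.66 against SPH. With a correction for GC content the fold against DLD1 was 1.05, past 2-fold. S100A6 shares its order of lines with S100A4, from METS through SPH and SA to DLD1, but SA exceeded DLD1 by a ratio of only 1.001. In each of the lines it ranked among the 77 most abundant genes. Its exons share 23 bases with BX470102.1 in GENCODE 29.

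The annexin-binding members S100A10 and S100A11 differed little between lines. S100A10, which does not bind calcium and joins annexin A2 at the cell membrane, stood at 258 RPKM in SA, 252 in SPH and 286 in METS, against 321 in DLD1. All 3 derived lines were below DLD1, by log2 folds of -0.31, -0.34 and -0.17. S100A11, which binds annexin A1, stood at 146 RPKM in SA, 159 in SPH and 163 in METS, against 156 in DLD1. Its highest and lowest lines differed by a ratio of 1.12, the narrowest range among the members. Its pseudogenes S100A11P1 and S100A11P2 are listed at 0.

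S100A13, which takes part in the release of FGF1 and IL1A from cells, stood at 16.8 RPKM in SA, 18.8 in SPH and 15.0 in METS, against 14.2 in DLD1. Both mesenchymal lines were above both epithelial lines, by a mean of 0.27 on the log2 scale. In GENCODE 29 its exons share 536 of 2216 bases with AL162258.1 on the same strand and 235 with S100A1 on the opposite strand, and whether counting used strand is not stated. S100A1 did not exceed 0.02 RPKM. FGF1, IL1A and SYT1, its partners in release, did not exceed 0.01, 0.29 and 0.05 RPKM.

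S100A2, a member of squamous epithelia, stood at 3.01 RPKM in SA, 2.03 in SPH and 1.14 in METS, against 2.11 in DLD1. It was the 1 member above 1 RPKM that was lowest in METS. The log2 folds against DLD1 were 0.37 in SA, -0.04 in SPH and -0.54 in METS. Between METS and SA its log2 fold was -0.91, and -1.33, past 2-fold, with a pseudocount of 0.1 in place of 1. S100A3, a protein of the hair cuticle, stood at 0.06 RPKM in SA, 0.10 in SPH and 0.02 in METS, against 0.06 in DLD1. Those values correspond to about 5.05 reads in SPH and 3.08 in DLD1, so S100A3 is close to undetected and no difference between lines can be read from it.

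**Figure D2:**
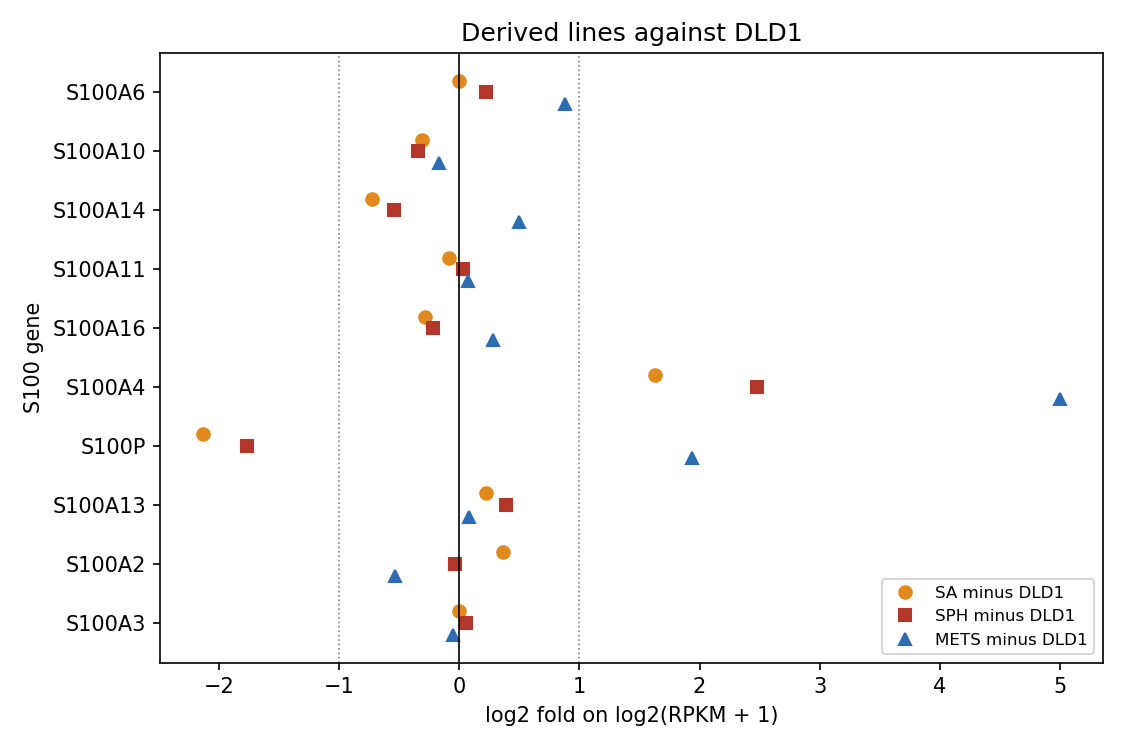
Log2 fold of SA, SPH and METS minus DLD1 on log2(RPKM + 1) for each S100 gene, with dotted lines at 2-fold in each direction. S100A4 lies to the right in all 3 lines, up to 5.00 in METS, and S100P lies to the left in SA and SPH (-2.13 and -1.77) and to the right in METS (1.93).

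Of the 10 members 9 reached 1 RPKM in a line and were counted. In SA against DLD1, S100A4 was at least 2-fold higher and S100P lower, 1 member each, against 0.44% and 0.238% of 11367 genes. At 4-fold 0 members were higher and S100P was lower (0.0528% and 0.0264% of genes). In SPH the same 2 members were past 2-fold, 1 in each direction, against 0.716% and 0.542% of 11446 genes. At 4-fold S100A4 was higher and 0 members lower (0.0699% and 0.0437% of genes). In METS 2 members, S100A4 and S100P, were at least 2-fold higher than in DLD1 and 0 lower, against 0.523% and 0.896% of 11275 genes. At 4-fold S100A4 remained, with 0 lower (0.0621% of genes in each direction). METS against SA gave 3 higher, with S100A14 as the third, and 0 lower, against 0.701% and 1.23% of 11409 genes. At 4-fold 2 were higher and 0 lower (0.0877% and 0.14% of genes). METS against SPH gave the same 3 higher and 0 lower, against 0.948% and 1.7% of 11495 genes. At 4-fold 2 were higher and 0 lower (0.122% and 0.2% of genes). No member differed 2-fold between SPH and SA, where 0.131% of 11431 genes did in each direction, and 0% and 0.00875% were 4-fold higher and lower. Nothing is read from these shares, because the members were picked with these values known, and the comparisons with DLD1 share its 1 library. The median member fold was -0.09 in SA, -0.04 in SPH and 0.28 in METS against DLD1, beside medians over all genes of 0.03, 0.03 and -0.03.

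By class, 4 of the 9 members lay lower in both mesenchymal lines than in either epithelial line, S100P, S100A14, S100A16 and S100A10, and S100A13 lay higher. Over 11262 genes the same held for 13.1% (lower) and 24.7% (higher). The class fold, the mean log2 level of SA and SPH minus that of METS and DLD1, was -2.92 for S100P and -0.88 for S100A14. Without DLD1 these were -3.89 and -1.13, and without METS -1.95 and -0.63. For S100A16 the class fold was -0.39 and for S100A10 -0.24. S100A4 has a class fold of -0.45 that describes neither class, because the mesenchymal lines lie between METS and DLD1. Without the METS library it was 2.05, and without DLD1 it was -2.95. METS was the highest line for 6 of the 9 members, S100A4, S100P, S100A6, S100A11, S100A14 and S100A16, and for 24% of 11664 genes.

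The 10 members together held 999 RPKM in SA, 1107 in SPH and 1922 in METS, against 1177 in DLD1. That was 0.362%, 0.395% and 0.675% of all RPKM in the derived lines, against 0.42% in DLD1. S100A4 made 2.85% of the family sum in SA, 4.73% in SPH and 15.8% in METS, against 0.727% in DLD1. In METS it was the second most abundant member after S100A6, a place that S100A10 held in SA and SPH, while in DLD1 S100A10 came first and S100A6 second. The share of S100A10 was 25.9% in SA, 22.8% in SPH and 14.9% in METS, against 27.3% in DLD1. S100P made 0.679% of the sum in SA, 0.813% in SPH and 6.73% in METS, against 2.81% in DLD1.

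The rest of the family was nearly silent. Of 11 other S100 genes 6 are listed at 0 in all lines (S100A7, S100A7A, S100A7L2, S100A12, S100B and S100G). The myeloid members S100A8 and S100A9 did not exceed 0.04 and 0.07 RPKM, and S100Z did not exceed 0.01. S100A5 alone reached 1 RPKM, at 2.23 in SA, 1.23 in SPH and 2.97 in METS, against 1.77 in DLD1. The S100-fused genes of the skin barrier FLG, FLG2, HRNR, TCHHL1 and CRNN are listed at 0, RPTN did not exceed 0.04 RPKM, and TCHH lay between 0.20 and 0.35.

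Most S100 genes lie in the epidermal differentiation complex of chromosome 1, and S100P lies apart on chromosome 4. Along chromosome 1 the METS fold against DLD1 was 0.88 at S100A6, 0.52 at S100A5, 5.00 at S100A4, -0.06 at S100A3 and -0.54 at S100A2. S100A5 thus differed less than S100A4 itself, and S100A3, on the other side, had too few reads to compare. The next genes beyond the S100 run, CHTOP, SNAPIN and ILF2, had METS folds of -0.02, -0.14 and -0.22. Around S100P on chromosome 4, MRFAP1 and MRFAP1L1 had METS folds of 0.03 and 0.04, and SA folds of 0.12 and 0.15 where S100P had -2.13. BLOC1S4 and KIAA0232 had METS folds of -0.15 and 0.06, and MAN2B2 -0.39.

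**Figure D3:**
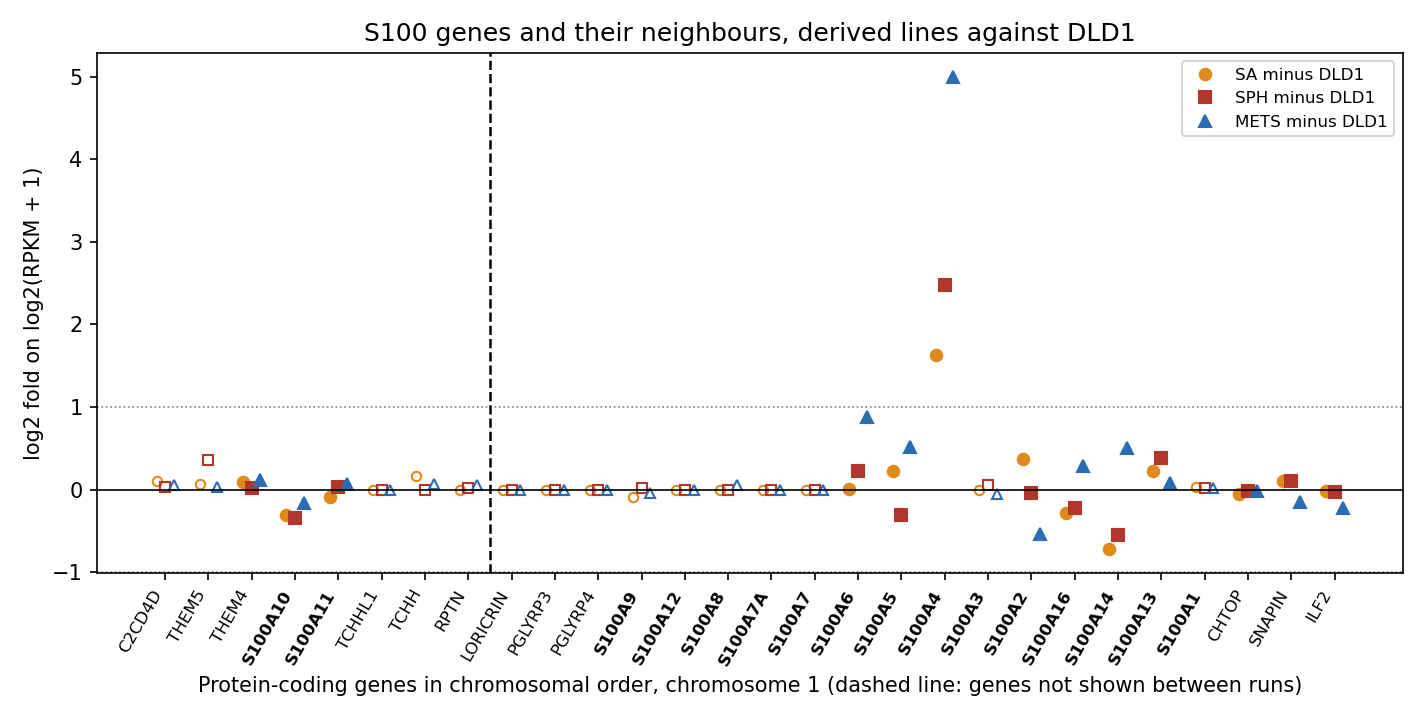
Log2 fold of SA, SPH and METS minus DLD1 for the S100 genes of chromosome 1 (bold) and the 3 nearest protein-coding genes on each side, in chromosomal order from RefSeq, with open symbols for genes under 1 RPKM in all lines. S100A4 stands out at 1.63, 2.48 and 5.00, while S100A5 beside it lies between -0.31 and 0.52.

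Genes with the pattern most like S100A4 were sought among 11653 genes of at least 1 RPKM in a line, by the Euclidean distance between log2 profiles over the 4 lines, each centred on its mean. The closest was PHGR1, an intestinal gene, at a distance of 1.80, where a gene that did not vary at all would be at 3.61. PHGR1 stood at 0.35 RPKM in SA, 0.42 in SPH and 6.48 in METS, against 0.12 in DLD1. Next came MEGT1 (2.12), the cell cycle inhibitor CDKN1C (2.15), the desmosomal cadherin DSC2 (2.24) and the chloride channel family gene CLIC3 (2.25). DSC2 stood at 1.27 RPKM in SA, 1.82 in SPH and 6.97 in METS, against 1.14 in DLD1.

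For S100P the closest was C6orf15, at a distance of 1.30 where a flat profile would be at 3.23. C6orf15 stood at 2.94 RPKM in SA, 3.06 in SPH and 19.1 in METS, against 8.95 in DLD1. LY6G6D, the metalloproteinase inhibitor TIMP3 (1.70), CLIC3 (1.74) and the mitochondrial creatine kinase CKMT1A (1.74) followed. TIMP3 stood at 0.73 RPKM in SA, 0.06 in SPH and 4.97 in METS, against 1.26 in DLD1. CKMT1A has a near-identical copy, and the symbol MEGT1 is a RefSeq synonym of LY6G6D and its readthrough, so the reads of these rows may be shared. The locus of MEGT1 and LY6G6D is thus in both sets. CLIC3 was in both under 1 symbol, with 1.54 RPKM in SA, 2.08 in SPH and 11.9 in METS, against 2.13 in DLD1. Among the members themselves, S100P was nearest to S100A14, at 2.28, and S100A4 to S100A6, at 2.95.

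**Figure D4:**
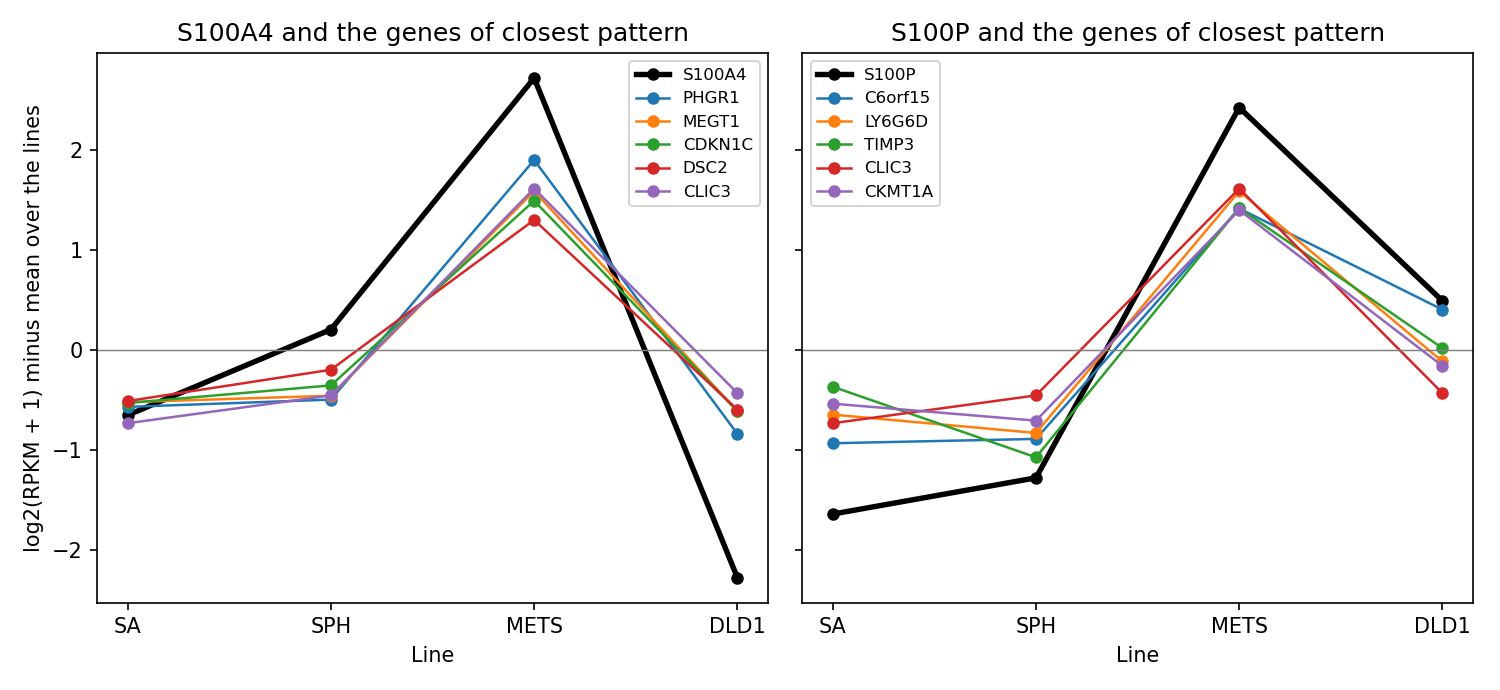
Log2(RPKM + 1) minus its mean over the lines for S100A4 (left) and S100P (right), in black, each with the 5 genes of closest pattern, over SA, SPH, METS and DLD1. Lines only guide the eye between libraries. All genes peak in METS, which follows from their choice by pattern, and the black lines span a wider range than the others.

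The partner genes were taken from 8 lists, of which 72 genes are reported, drawn up with earlier results of these data known. Besides binding partners of the family, the lists hold genes of plasminogen activation and other EF-hand calcium sensors. All are called partner genes here. They were compared between classes with limma-trend and Benjamini-Hochberg adjustment over 11262 genes, with 2 lines per class. The p-values and standard errors rest on the spread between the 2 lines of a class, which limma-trend draws toward that of genes of similar level. They do not measure the spread between cultures. Of the 61 reported genes that were tested 0 rose and 1 fell in the mesenchymal lines, beside 0.32% and 0.0355% of all genes. At an unadjusted p under 0.05 there were 12 of the 61, beside 974 of the 11262 genes (limma-trend). The median class fold of the 61 was -0.01, beside 0.04 over all genes.

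The gene that fell was EFHD1, an EF-hand protein of mitochondria from the list of other EF-hand calcium sensors, not from those of binding partners. It stood at 1.72 RPKM in SA and 1.25 in SPH, against 5.78 in METS and 7.89 in DLD1. Its class fold was -1.65 ± 0.17 (SE, adjusted p = 0.034, limma-trend), and both mesenchymal lines lay below both epithelial lines. It did not pass without the SA library (class fold -1.79), without the SPH library (-1.51), with no filter on low values or with a minimum of 5 RPKM (-1.65 in both). With a pseudocount of 0.1 the class fold was -2.13, and with one of 5 it was -0.86, under 2-fold.

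S100A10 with annexin A2 promotes the activation of plasminogen at the cell surface. Of the 3 genes of plasminogen activation reported and tested 0 passed, with 1 at an unadjusted p under 0.05 (limma-trend) and a median class fold of -0.28. The activator gene PLAU stood at 1.95 RPKM in SA and 2.25 in SPH, against 2.67 in METS and 3.31 in DLD1 (-0.36, adjusted p = 0.54, limma-trend). Its receptor gene PLAUR and the inhibitor gene SERPINE2 had class folds of -0.28 and 0.51 without passing. The other activator, PLAT, did not exceed 0.36 RPKM, and plasminogen itself, PLG, did not exceed 0.01.

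Ezrin, EZR, the partner of S100P, stood at 127 RPKM in SA and 117 in SPH, against 172 in METS and 159 in DLD1 (class fold -0.44, adjusted p = 0.34, limma-trend). Annexin A2, ANXA2, the partner of S100A10, had 125 RPKM in SA and 116 in SPH, against 159 in METS and 157 in DLD1 (-0.39, adjusted p = 0.37, limma-trend). In both, as in S100A10 and S100P, the mesenchymal lines lay below the epithelial lines, and neither passed. The same held for 13.1% of 11262 genes, ANXA7 and ANXA11 among them, and a link between partner and member was not tested. Annexin A5, ANXA5, lay the other way, at 74.9 RPKM in SA and 73.6 in SPH, against 55.6 in METS and 62.4 in DLD1 (0.33, adjusted p = 0.48, limma-trend). ANXA4 and ANXA11 had class folds of -0.43 and -0.28. Of the 8 annexin and AHNAK genes 0 passed (limma-trend), with 3 at an unadjusted p under 0.05 and a median class fold of -0.15. ANXA6 had 7.12 RPKM in METS and 15.9 in DLD1, a log2 fold of -1.06.

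Among 12 cytoskeletal targets 0 passed (limma-trend), with 2 at an unadjusted p under 0.05 and a median of 0.01. MYH9, the nonmuscle myosin heavy chain that S100A4 binds, stood at 73.6 RPKM in SA, 71.4 in SPH and 67.6 in METS, against 93.0 in DLD1. All 3 derived lines were below DLD1 in MYH9, as also in MYH10, TPM1 and IQGAP1 of the same list. These comparisons share the DLD1 library, and a link to the level of S100A4 was not tested. PPFIBP1, which encodes the S100A4-binding liprin beta, had a class fold of 0.51 (adjusted p = 0.34, limma-trend), with 17.1 RPKM in SA and 14.5 in SPH, against 11 in METS and 10.5 in DLD1. The tropomyosin TPM1 (-0.54) and the myosin MYH10 (-0.38) leaned lower without passing. IQGAP1, a scaffold bound by S100P, had a class fold of 0.02.

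The chaperone and ubiquitin ligase partners of S100A6 and other members had class folds between -0.11 and 0.11. Of 7 tested 0 passed, with 0 at an unadjusted p under 0.05 (limma-trend) and a median of -0.00. CACYBP, the calcyclin-binding protein, stood at 39.4 RPKM in SA, 36.8 in SPH and 35.5 in METS, against 37.2 in DLD1. HSP90AA1, FKBP4 and PPP5C had class folds of 0.11, -0.11 and -0.03. Of 3 nuclear partners reported and tested 0 passed, with 1 at an unadjusted p under 0.05 (limma-trend) and a median of 0.22. TP73 led them at 3.50 RPKM in SA and 3.93 in SPH, against 1.63 in METS and 2.92 in DLD1 (0.55, adjusted p = 0.53, limma-trend). MDM4 and MDM2 had class folds of 0.22 and 0.04.

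Receptors for secreted S100 proteins were low or level. AGER, the receptor RAGE, stood at 1.25 RPKM in SA, 1.29 in SPH and 0.87 in METS, against 1.03 in DLD1. TLR4 did not exceed 0.06 RPKM. Of 6 genes tested 0 passed, with 1 at an unadjusted p under 0.05 (limma-trend) and a median of 0.06. The EGF receptor ligand AREG, which S100A4 binds, stood at 72.6 RPKM in SA and 69.7 in SPH, against 147 in METS and 95.5 in DLD1 (class fold -0.73, adjusted p = 0.39, limma-trend). AREG thus had the same order of epithelial over mesenchymal lines as S100P, with METS highest. Lower than DLD1 in SA and SPH and higher in METS describes 7.78% of 11664 genes. EGFR and ERBB2 had class folds of 0.26 and -0.19. Of 3 genes listed for release with S100A13, 0 reached the minimum for the test.

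Among 22 other EF-hand calcium sensors reported, EFHD1 was the 1 gene that passed, with 4 at an unadjusted p under 0.05 (limma-trend) and a median class fold of -0.02. The calmodulin gene CALM2 stood at 78.9 RPKM in SA and 78.2 in SPH, against 96.7 in METS and 98.9 in DLD1 (class fold -0.31, adjusted p = 0.46, limma-trend). CALM3 had a class fold of 0.05. NUCB2, NCS1 and CAPN1 had class folds of 0.34, -0.31 and -0.28.

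**Figure D5:**
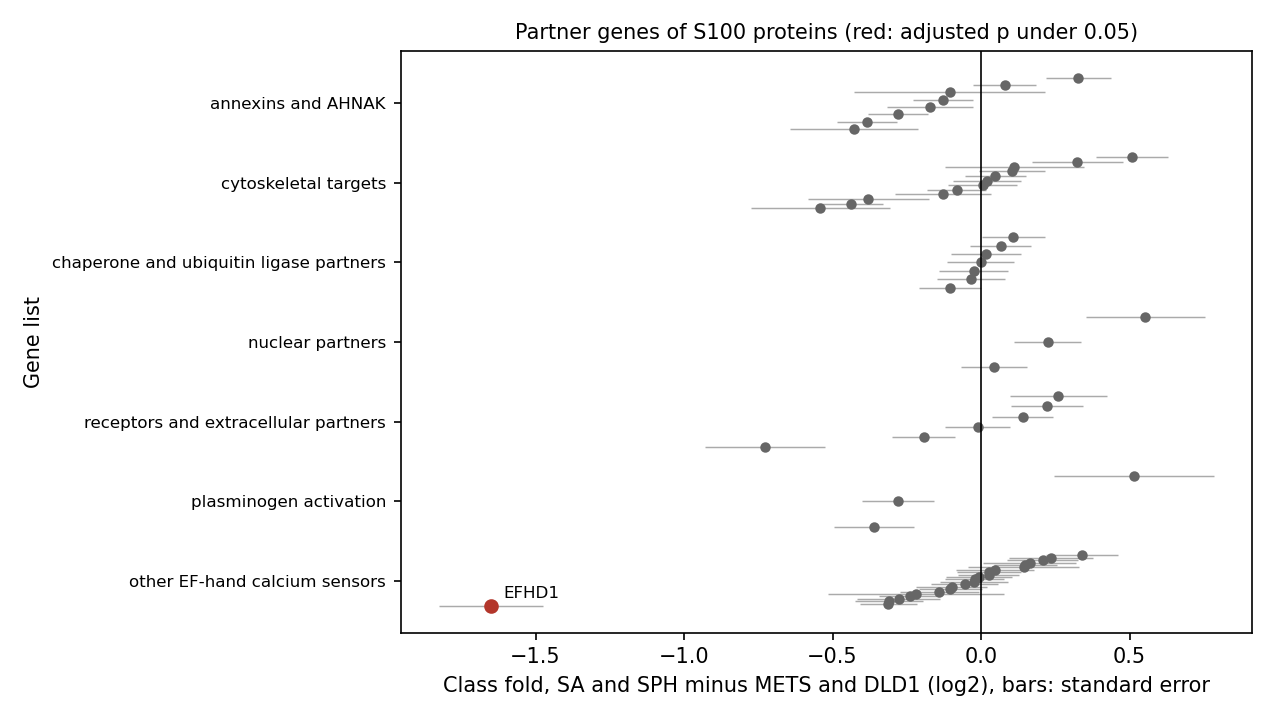
Class fold (mean log2 level of SA and SPH minus that of METS and DLD1) with its standard error for the 61 partner genes reported and tested, by list, 1 point per gene. EFHD1, at -1.65, is past adjusted p 0.05 (limma-trend, red), and the other genes plotted lie between -0.73 and 0.55.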

How the data were processed

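RNA of 4 cell lines was sequenced, 1 library each, and the authors deposited 1 table of RPKM per gene, read as RPKM from the values (not whole, 2 decimals, unequal column sums). Per the submitters' processing notes the reads were placed on hg19; aligner, counter, annotation and strandedness are not given in these sources. Depth was estimated from the step of low values in genes of 200 to 500 bases: a gene of 1 kb at 1 RPKM held about 52.9 reads in SPH and 53.7 in DLD1, while SA and METS gave less sharp steps. Approximate reads use exon lengths of GENCODE 29, not the authors' models, and cover counting error only (4.61% for S100A4 in DLD1).

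Log2 folds are on log2(RPKM + 1), which understates changes of low genes. Genes entered a pairwise comparison at 1 RPKM in the higher library, and the class test (limma 3.58.1, R 4.3.3, with trend) at 1 RPKM in at least 2 libraries. Promoter letters come from RefSeq (GRCh38.p14), and chromosomal order from its gene table. Members and lists were chosen with earlier results of these data known. Named genes are all S100 genes, every partner past the class test and up to 4 more per list by class fold (others, such as MYH9, for their known binding), the 5 genes closest to S100A4 and to S100P, and 3 neighbours per side. The promoter genes and motifs were chosen after the values were seen. Of the 8 partner lists, 3 genes are not reported here; they stayed in the fit over all genes, and the partner counts leave them out whatever their test gave. Alternatives were pseudocounts of 0.1 and 5, no filter or 5 RPKM, median-of-ratios factors, corrections for length and GC content (lowess, span 0.3), a 4-fold rule, leaving out each library, and limma with no trend. Python 3.11.15 with pandas 2.3.3 and statsmodels 0.14.6 was used.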

Additional observations from a re-analysis of the deposited data

Results flagged for a closer look

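S100P, S100A14 and S100A16 moved one way against DLD1 in both mesenchymal lines and the other way in METS. The METS fold less the mean fold of SA and SPH, each against DLD1, was 3.89 for S100P, 1.13 for S100A14 and 0.532 for S100A16 (log2). The difference was not tested, since each line has 1 library, and the 3 folds share the DLD1 library.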

How the results depend on the processing

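The count of members at least 2-fold apart kept within 1.5 times under every alternative but the 4-fold rule, which left 1 member each in SA, SPH and METS against DLD1 (2 at 2-fold). The GC content correction made it 3 in METS against DLD1, adding S100A6, and a pseudocount of 0.1 made it 4 in METS against SA (3 at the pseudocount of 1), adding S100A2. The number of members with a class fold past 2-fold was 1 with all libraries and ran from 1 to 3 as each library was left out. In the class test 40 of 11262 genes and 1 of 61 reported partner genes passed (limma-trend). With a pseudocount of 0.1 the count of genes was 26. With no filter 0 genes and 0 partners passed (2208 and 12 at an unadjusted p under 0.05, limma-trend), with more genes tested. With a minimum of 5 RPKM 5 genes and 0 partners passed (467 and 10 at an unadjusted p under 0.05, limma-trend). Leaving out each library gave 5 genes (without SA) to 305 (without DLD1), with 6 without SPH and 27 without METS. Among partners it gave 0 (without SA or SPH, with 5 and 3 at an unadjusted p under 0.05, limma-trend) to 4 (without DLD1). The cause was not tested. In an arm left with 1 library, that library is assumed to vary like the others. Of the values of single members 31 moved by more than 0.198, the SD over genes of the log2 difference of SA and SPH. Among them, the class fold of S100A4 changed sign, at -0.45 with all libraries and 2.05 without METS. That of S100A6 changed sign too, at -0.33 with all libraries and 0.11 without METS. The class fold of EFHD1 ran from -2.13 (pseudocount 0.1) to -0.86 (pseudocount 5). S100A3 rests on too few reads for any difference. No paired analysis was possible because each line has 1 library and the labels carry no replicate numbers.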
